A study of Mus musculus with 4 samples.

Results

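The annexins and S100 proteins are families of calcium-binding proteins, and 10 of their genes were followed here in CD4 T cells with and without ectopic Tox. The 10 genes were taken by name, 6 annexins (*Anxa1*, *Anxa2*, *Anxa4*, *Anxa5*, *Anxa6* and *Anxa7*) and 4 S100 genes (*S100a4*, *S100a6*, *S100a10* and *S100a11*), from the 24369 genes listed in each library. All 10 passed the filter on low counts, which left 14143 genes to test. Naive CD4 T cells from the spleens of wild-type C57BL/6 mice were activated without polarizing cytokines, with antibodies to CD3 and CD28 and with IL-2, although the sample labels name recombinant human anti-CD28 where the methods name IL-2. On day 2 the cells received an MSCV retrovirus carrying GFP alone (empty vector, EV RV) or Tox together with GFP (Tox RV), so that the added Tox was driven by the virus. On day 5 both groups were stimulated again through CD3, and GFP+ CD4 cells were sorted for RNA-seq, which leaves out untransduced cells of either culture. For this second stimulation the methods name anti-CD3 without anti-CD28, whereas the results of the paper name both antibodies. Each group held 2 libraries from 2 mice. Pairs of values are given for replicate 1 and then replicate 2.

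Annexins bind acidic phospholipids at the inner face of membranes when calcium rises, and act in vesicle traffic, membrane repair and the link between membrane and actin. S100 proteins are EF-hand dimers that change shape on binding calcium and then dock onto targets, annexins among them: S100A10 pairs with annexin A2, and S100A11 with annexins A1 and A6. In T cells, *S100a4*, *S100a6*, *S100a10* and *Anxa1* are best known as genes that are higher in effector and memory cells than in naive cells.

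The libraries held 46989997 to 74548723 expected counts, which are estimates of the fragments per gene that need not be whole. *Tox* was at 11.7 and 5.73 CPM (counts scaled to library size) with the empty vector and at 121 and 99.9 CPM with the Tox vector, which is the order the labels give. The T cell genes *Cd3d*, *Cd3e*, *Cd3g* and *Cd4* summed to 1055 to 1518 TPM (a length-corrected share of all transcripts). The CD8 genes *Cd8a* and *Cd8b1* summed to 3.32 to 4.98 TPM, with *Cd8a* at or below 1.15 TPM. Neutrophils carry *S100a8* and *S100a9* as their most abundant S100 genes, and both were listed at 0 in all 4 libraries, while the B cell, myeloid, neutrophil, stromal and platelet marker lists each summed to at most 2.51 TPM in any library. EV RV replicate 1 stood apart from the other libraries, with 24.7% of its counts on the pre-ribosomal RNA *Rn45s* against at most 12% elsewhere and a score of -53.8 on the first principal component against 5.70 to 25.8. In RNA from a sorted population, fewer cells that express a gene and less RNA per cell cannot be told apart.

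With ectopic Tox, 6 of the 10 genes had higher values in both libraries, by modest amounts that did not pass the test. The annexins *Anxa2*, *Anxa4*, *Anxa5* and *Anxa6* and the neighbouring genes *S100a4* and *S100a6* were higher in each Tox RV library than in each EV RV library on the CPM scale, by 1.14-fold (*Anxa6*) to 1.46-fold (*S100a4*). *Anxa1*, *Anxa7*, *S100a10* and *S100a11* overlapped between the groups on this scale. In TPM, 5 of the 10 genes had both Tox RV values on top (11.6% of all genes), *Anxa4* overlapped, and 1 gene, *Anxa7*, had both Tox RV values at the bottom (23.2% of all genes). With the quasi-likelihood F test of edgeR, 0 of the 10 genes had a p-value adjusted by Benjamini and Hochberg's method below 0.05. The same was true of all genes tested (0%), the transduced *Tox* among them, so the absence of a call does not show an absence of change. In the same test, 0 of the 10 against 3.62% of all genes had an unadjusted p-value below 0.05. With DESeq2, 0 of the 10 genes and 0.156% of all genes passed an adjusted p-value of 0.05, and 1 of the 10, *S100a11*, had an unadjusted p-value below 0.05, against 4.31% of all genes. On the CPM scale, the 6 genes with both Tox RV values on top compare with 18.6% of all genes tested, and 0 genes lay the other way, against 17.4% of all genes. Just *Anxa2*, *Anxa5* and *Anxa6*, 3 of the 10, had a log2 change larger than the log2 difference between replicates in both groups, a property shared by 20.6% of all genes. The median log2 change was 0.22 over the 6 annexins and 0.24 over the 4 S100 genes, beside 0.0036 over all genes tested. The S100 median rested on the Tox RV libraries, at 0.00039 without Tox RV replicate 1 and 0.43 without Tox RV replicate 2. The annexin median was 0.15 without Tox RV replicate 1 and 0.37 without Tox RV replicate 2. Here and below, a log2 change is that of Tox RV over EV RV in the edgeR fit of counts, SE is its standard error, and p-values rest on 2 libraries per group.

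**Figure D1:**
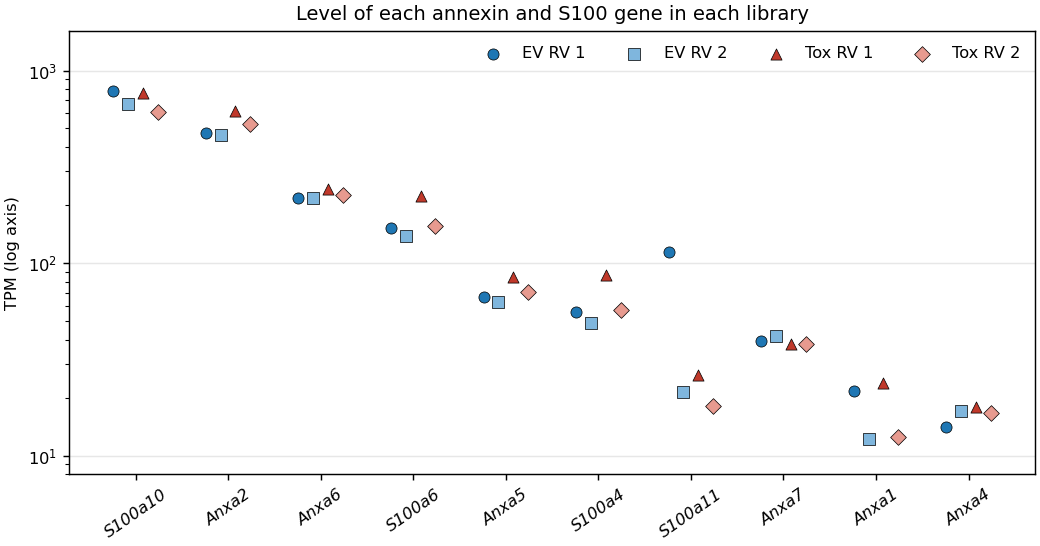
TPM on a log axis of the 10 genes in each of the 4 libraries, ordered by mean TPM, with circles and squares for EV RV replicates 1 and 2 and triangles and diamonds for Tox RV replicates 1 and 2. *S100a10* and *Anxa2* lead at 462 to 784 TPM, and *S100a11* in EV RV replicate 1 (114 TPM) lies far above its other 3 values (18.1 to 26.1 TPM).

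The mean levels of the 10 genes over the 4 libraries ran from 706 TPM for *S100a10* to 16.4 TPM for *Anxa4*. *S100a10* and *Anxa2* (mean 519 TPM) came first, and *S100a10* was above *Anxa2* in all 4 libraries although their ranges over the libraries met. *Anxa6* (225 TPM) lay above *S100a6* (167 TPM) in all 4 libraries, again with meeting ranges. *Anxa5* (71.1 TPM), *S100a4* (62.1 TPM) and *S100a11* (44.8 TPM) did not hold 1 order, since *Anxa5* exceeded *S100a4* in 3 of 4 libraries and *S100a4* exceeded *S100a11* in 3 of 4. *S100a11* was above *Anxa7* (39.2 TPM) in only 1 of 4 libraries, so its place in the order came from EV RV replicate 1. *Anxa1* (17.5 TPM) and *Anxa4* could not be ordered, as each was higher in 2 of 4 libraries. The steps with no overlap were *Anxa2* over *Anxa6* (2.31-fold), *S100a6* over *Anxa5* (2.35-fold) and *Anxa7* over *Anxa1* (2.24-fold). As a pool, the 6 annexins summed to 832 and 813 TPM in the EV RV libraries and to 1020 and 888 TPM in the Tox RV libraries, so that each Tox RV sum was above each EV RV sum. The 4 S100 genes summed to 1106 and 876 TPM and to 1099 and 840 TPM in the same order, with full overlap. Of the annexin sums, *Anxa2* held 56.8% to 60.3% and *Anxa6* 23.7% to 26.6%, so their separation largely repeats that of these genes.

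*Anxa2* encodes the main partner of S100A10 and a link between membrane, actin and plasminogen, and it was the most abundant annexin. Its position in mm10 is chromosome 9, 69453683 to 69491792, on the plus strand, and positions below are in the same build. Its level was 472 and 462 TPM in the EV RV libraries and 615 and 526 TPM in the Tox RV libraries. The EV RV values sat close together, and the lower Tox RV value was still above them. The log2 change was 0.37 (SE 0.17, edgeR adjusted p = 0.897), with a range of 0.24 to 0.48 when each library was left out in turn. *Anxa5*, on chromosome 3 from 36448923 to 36475887 (minus strand), encodes the phosphatidylserine binder whose labelled form is used to stain dying cells. It was at 66.7 and 63.1 TPM in the EV RV libraries and 84.3 and 70.4 TPM in the Tox RV libraries. The log2 change of *Anxa5* was 0.34 (SE 0.18, edgeR adjusted p = 0.897), and 0.19 to 0.46 with a library left out. The profiles of these genes over the 4 libraries were the most alike of the 45 pairs among the 10 genes, with a root mean square difference of 0.028 between their centred log2 CPM. This likeness is a description over 4 points that share the same depth and scaling.

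The stretches of 250 bases that end at the annotated start of *Anxa2* (chr9:69453433-69453682, plus strand) and *Anxa5* (chr3:36475888-36476137, minus strand) are shown because these annexins moved most alike. They come from RefSeq on build GRCm38.p6, the mm10 assembly, run 5′ to 3′ on the strand of the gene, and capitals mark the AP-1 motif TGANTCA and the TATA box motif TATAAA on either strand.
Anxa2: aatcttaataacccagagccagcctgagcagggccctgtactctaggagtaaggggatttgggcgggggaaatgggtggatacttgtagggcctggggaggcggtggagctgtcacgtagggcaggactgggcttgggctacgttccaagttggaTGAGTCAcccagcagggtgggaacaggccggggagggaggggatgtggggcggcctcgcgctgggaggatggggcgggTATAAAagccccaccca
Anxa5: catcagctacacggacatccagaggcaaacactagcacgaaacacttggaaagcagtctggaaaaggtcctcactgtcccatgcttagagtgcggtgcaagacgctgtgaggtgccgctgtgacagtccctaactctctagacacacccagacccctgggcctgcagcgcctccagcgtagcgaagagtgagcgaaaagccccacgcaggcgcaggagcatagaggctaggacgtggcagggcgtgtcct
The *Anxa2* window held 1 AP-1 motif, beginning 95 bases before the start, and 1 TATA box motif beginning 17 bases before it, and the *Anxa5* window held neither. The AP-1 motif, the letters bound by FOS, JUN and BATF dimers, stood in 6.75% and the TATA box motif in 12.4% of all 32851 windows of this length in the RefSeq set. Windows were found for 8 of the 10 genes, not for *Anxa6* or *S100a10*, and 2 of the 8 held an AP-1 motif (*Anxa2* and *S100a11*) and 3 a TATA box motif (*Anxa1*, *Anxa2* and *S100a4*). The motifs did not overlap each other in any of these windows. Such a match is a run of letters in the window, and binding was not measured here.

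*Anxa6*, the largest annexin and a protein of the plasma membrane and late endosomes, lies on chromosome 11 from 54978953 to 55033471 (minus strand). It was at 218 and 217 TPM in the EV RV libraries and at 241 and 225 TPM in the Tox RV libraries. The groups did not overlap, but the step was small, with a log2 change of 0.18 (SE 0.16, edgeR adjusted p = 0.897) that ranged from 0.12 to 0.24 with a library left out. *Anxa4*, whose protein aggregates vesicle membranes, lies on chromosome 6 from 86736840 to 86793634 (minus strand). Although *Anxa1* was lower in 2 of 4 libraries, *Anxa4* had the lowest mean TPM of the 10 genes. Its TPM were 14.1 and 17.0 for EV RV against 17.9 and 16.7 for Tox RV, which overlap, whereas its CPM were 15.6 and 19.9 against 21.6 and 20.1 and did not. The log2 change of *Anxa4* was 0.23 (SE 0.20, edgeR adjusted p = 0.897), and 0.065 without EV RV replicate 1. *Anxa7*, also called synexin and the annexin first known for fusing secretory granules, lies on chromosome 14 from 20455261 to 20480133 (minus strand). It was the steadiest member, at 39.3 and 41.9 TPM in the EV RV libraries and 37.8 and 37.8 TPM in the Tox RV libraries. Its groups did not overlap in TPM, with Tox RV lower, but did in CPM, at 64.0 and 71.7 against 66.7 and 66.5. Its log2 change was -0.026 (SE 0.17, edgeR adjusted p = 0.981). *Anxa6* and *Anxa7* are the members with 2 transcripts each in the quantification, and the mean transcript length assigned to them varied from 2654 to 2655 and from 2862 to 2868 bases over the libraries.

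*Anxa1* encodes the annexin that glucocorticoids induce and that signals through formyl peptide receptors to dampen inflammation. It lies on chromosome 19 from 20373434 to 20390671 (minus strand). Its level was 21.6 and 12.1 TPM in the EV RV libraries and 23.8 and 12.4 TPM in the Tox RV libraries. The replicates numbered 1 were high and those numbered 2 low in either group, so the log2 differences between replicates (0.76 for EV RV, 0.94 for Tox RV) exceeded the log2 change of 0.20 (SE 0.39, edgeR adjusted p = 0.930). The sign turned when 1 library was left out, to -0.35 without Tox RV replicate 1 and -0.13 without EV RV replicate 2. The NK cell markers moved along with it, since *Ncr1*, *Klrb1c* and *Klrd1* summed to 33.9 and 4.33 TPM in the EV RV libraries and 22.3 and 4.38 TPM in the Tox RV libraries. This sum was almost wholly *Klrd1*, which T cells can also express, *Klrb1c* stayed at or below 0.73 TPM and *Ncr1*, the defining NK gene, was listed at 0 in every library. The part of these markers in the *Anxa1* values was not tested. The formyl peptide receptor genes *Fpr1* and *Fpr2* had too few counts to be tested, at no more than 0.10 TPM.

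**Figure D2:**
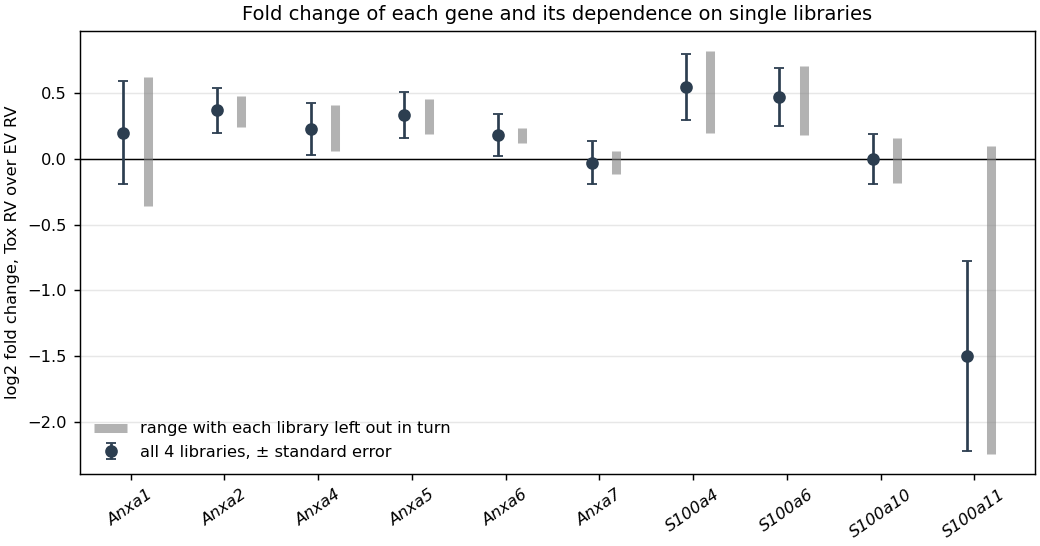
Log2 fold change of Tox RV over EV RV for the 10 genes, with points and bars for the value and SE in edgeR's fit of all 4 libraries and grey bars for the range when single libraries were left out. The grey bars of *Anxa2*, *Anxa4*, *Anxa5*, *Anxa6*, *S100a4* and *S100a6* stay above 0, and that of *S100a11* runs from -2.25 to 0.097.

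*S100a10* was the most abundant of the 10 genes and took 69.4% to 76.3% of the summed TPM of the 4 S100 genes. Its protein has lost calcium binding and is held in the active form that grips the tail of annexin A2. It lies on chromosome 3 from 93555117 to 93564645 (plus strand). It was at 784 and 668 TPM in the EV RV libraries and at 763 and 609 TPM in the Tox RV libraries, with replicate 1 above replicate 2 in either group. The log2 change was 0.0028 (SE 0.19, edgeR adjusted p = 0.998), and it lay between -0.18 and 0.16 with a library left out. The TPM of *S100a10* per TPM of *Anxa2* was 1.66 and 1.45 for EV RV against 1.24 and 1.16 for Tox RV. The ratio was thus lower in each Tox RV library than in each EV RV library (means 1.55 ± 0.152 and 1.20 ± 0.0596, SD, n = 2 each). The pair was set side by side because the proteins form a complex, and a ratio of RNA levels does not measure that complex.

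**Figure D3:**
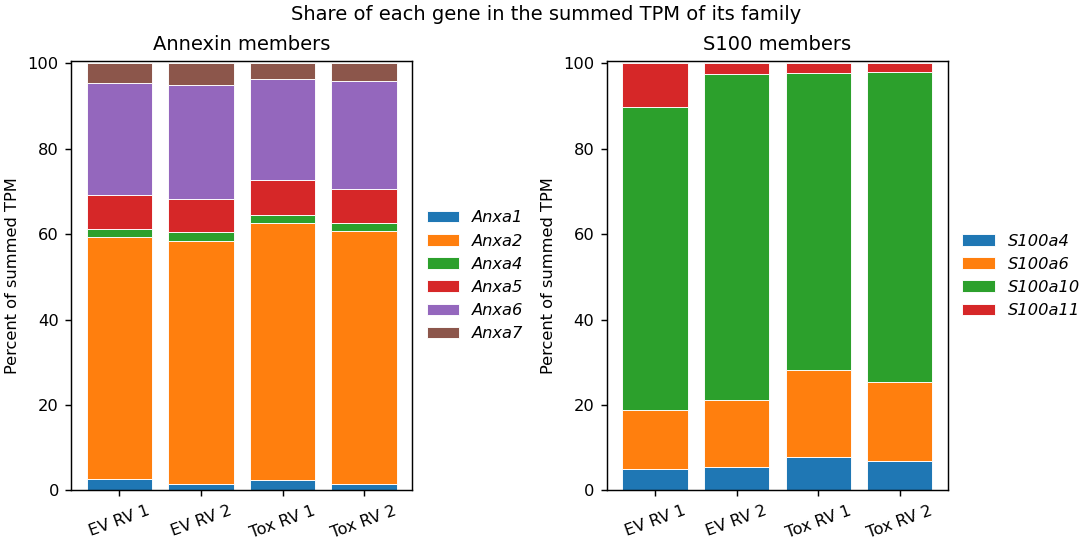
Stacked bars of the percent that each gene takes of the summed TPM of the 6 annexins (left) or the 4 S100 genes (right) in each library. *Anxa2* takes 56.8% and 56.9% of the annexin sum in EV RV against 60.3% and 59.3% in Tox RV, and *S100a11* takes 10.3% of the S100 sum in EV RV replicate 1 and 2.15% to 2.43% in the other libraries.

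*S100a4* and *S100a6* showed the highest fold changes of the 10 genes. *S100a4* encodes metastasin, which binds non-muscle myosin IIA and promotes cell motility, and *S100a6* encodes calcyclin, whose partners include the protein of *Cacybp*. *S100a4* lies on chromosome 3 from 90603770 to 90606045 (plus strand) and *S100a6* from 90612894 to 90614414 on the same strand, so that their starts are 9.12 kb apart. *S100a4* was at 55.8 and 48.6 TPM in the EV RV libraries and 86.9 and 57.0 TPM in the Tox RV libraries. Tox RV replicate 1 stood well above the rest, and Tox RV replicate 2 only just above EV RV replicate 1. The log2 change of *S100a4* was 0.55 (SE 0.25, edgeR adjusted p = 0.897). *S100a6* was at 152 and 138 TPM in the EV RV libraries and 223 and 156 TPM in the Tox RV libraries. Its log2 change was 0.47 (SE 0.22, edgeR adjusted p = 0.897). Without Tox RV replicate 1 the values dropped to 0.20 for *S100a4* and 0.18 for *S100a6*, and without Tox RV replicate 2 they were 0.82 and 0.71. The TPM of *S100a6* per TPM of *S100a4* was 2.73 and 2.83 for EV RV against 2.57 and 2.74 for Tox RV, so the genes moved nearly in step (root mean square difference of centred log2 CPM 0.051, over 4 libraries).

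The 250 bases before the start of *S100a4* (chr3:90603520-90603769) and *S100a6* (chr3:90612644-90612893), both on the plus strand of GRCm38.p6 and from RefSeq, are shown because these neighbours kept a TPM ratio of 2.57 to 2.83 in all libraries. Capitals mark the same motifs as above.
S100a4: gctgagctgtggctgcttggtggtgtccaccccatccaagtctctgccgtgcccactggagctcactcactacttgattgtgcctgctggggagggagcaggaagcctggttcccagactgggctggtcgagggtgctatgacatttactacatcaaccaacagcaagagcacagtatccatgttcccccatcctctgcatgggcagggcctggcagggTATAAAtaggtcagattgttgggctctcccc
S100a6: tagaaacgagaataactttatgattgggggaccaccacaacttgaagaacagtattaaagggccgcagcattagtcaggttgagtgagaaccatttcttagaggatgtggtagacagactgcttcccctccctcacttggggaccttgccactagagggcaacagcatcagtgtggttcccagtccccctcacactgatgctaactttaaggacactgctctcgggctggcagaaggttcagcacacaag
The *S100a4* window held a TATA box motif beginning 31 bases before the start and no AP-1 motif, and the *S100a6* window held neither.

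Of the S100 genes around them, *S100a3*, which ends 1.06 kb before *S100a4*, was also higher in both Tox RV libraries. It was weak, at 2.39 and 2.48 TPM in EV RV and 4.40 and 5.11 TPM in Tox RV, from counts of 34, 67, 102 and 97. Its log2 change of 1.04 (SE 0.33, edgeR adjusted p = 0.897) was the highest among the tested annexin and S100 genes, and it lay between 0.93 and 1.14 with each library left out. *S100a5*, which lies between *S100a4* and *S100a6* and is named for that position, had a log2 change of -0.047 (SE 0.51) at 2.50 to 4.90 TPM, from counts of 35, 34, 45 and 26. Further off, *S100a13* (88.7 and 120 TPM in EV RV, 99.5 and 90.1 TPM in Tox RV) and *S100a1* (15.7 and 44.1 TPM in EV RV, 19.3 and 20.3 TPM in Tox RV) overlapped between the groups. Both Tox RV values were therefore not on top in every tested gene of the cluster. With a library left out, the log2 changes ran from -0.44 to 0.44 for *S100a5*, -1.115 to 0.46 for *S100a1* and -0.30 to 0.22 for *S100a13*. A contrast within the cluster is thus not settled by these values.

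**Figure D4:**
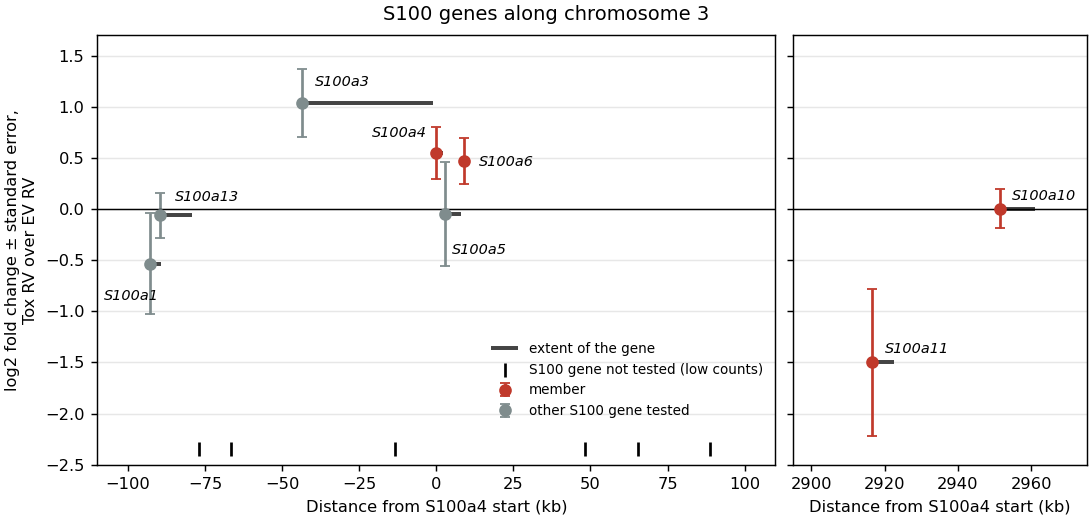
Log2 fold change of Tox RV over EV RV, with standard error, of the S100 genes on chromosome 3 by distance in kb of their lowest coordinate from the start of *S100a4*, with dark bars for the extent of each gene and ticks for genes with too few counts. *S100a3*, *S100a4* and *S100a6* lie at 1.04, 0.55 and 0.47, while *S100a5* between them and *S100a10* farther along lie at -0.047 (SE 0.51) and 0.0028 (SE 0.19). *S100a1*, *S100a13* and *S100a11* lie at -0.53, -0.062 and -1.5.

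*S100a11* had the largest change of the 10 genes by size, and that change came from 1 library. The gene encodes calgizzarin, a partner of annexins A1 and A6 in membrane repair and vesicle traffic, and lies on chromosome 3 from 93520496 to 93526288 (plus strand). It was at 114 and 21.3 TPM in the EV RV libraries and at 26.1 and 18.1 TPM in the Tox RV libraries, from rounded counts of 1022, 362, 381 and 216. EV RV replicate 1 was 4.02-fold above the next library on the CPM scale, whereas EV RV replicate 2 lay between the Tox RV values. Ranked from the top by the log2 difference of EV RV replicate 1 over EV RV replicate 2, *S100a11* was 82nd of 14124 genes. A gap of more than 4-fold between EV RV replicate 1 and every other library was found in 17 of the 14143 genes tested (0.12%). That cut-off lies just below the 4.02-fold of *S100a11*, so the share does not measure how unusual the gene is. The log2 change was -1.5 (SE 0.72, edgeR adjusted p = 0.897, DESeq2 adjusted p = 0.753). Leaving out EV RV replicate 1 gave 0.097, and leaving out EV RV replicate 2 gave -2.25 with an adjusted p of 0.0381, in an edgeR fit with 1 EV RV library in which 2.78% of all genes passed. The share of *S100a11* in the summed S100 TPM was 10.3% in EV RV replicate 1 and 2.43%, 2.37% and 2.15% in the others. The same library had the raised *Rn45s* share given above and 285 TPM of *Cd3e* against 85.7 to 109 TPM elsewhere. The part of these in the *S100a11* value was not tested.

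The 250 bases before the start of *S100a11* (chr3:93520246-93520495, plus strand of GRCm38.p6, from RefSeq) are shown because this gene differed most between the libraries, with motifs in capitals as before.
S100a11: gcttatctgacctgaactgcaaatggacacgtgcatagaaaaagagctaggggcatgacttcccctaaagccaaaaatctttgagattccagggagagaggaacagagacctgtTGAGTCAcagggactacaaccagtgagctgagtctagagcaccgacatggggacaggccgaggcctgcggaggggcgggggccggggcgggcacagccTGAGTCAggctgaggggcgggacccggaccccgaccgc
This window held 2 AP-1 motifs, beginning 136 and 38 bases before the start, and no TATA box motif.

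Among the rest of both families, 3 of 6 other annexins and 5 of 12 other S100 genes on the lists had enough counts, and 0 were called in either direction. *Anxa11*, an RNA granule tether and the most abundant of these annexins, was at 39.1 and 17.7 TPM in the EV RV libraries and 24.4 and 21.5 TPM in the Tox RV libraries. *Anxa3* was at 1.75 and 1.5 TPM in EV RV and 2.34 and 2.66 TPM in Tox RV, with a log2 change of 0.70 (SE 0.30, edgeR adjusted p = 0.897). *Anxa9* stayed between 1.58 and 3.38 TPM. *S100b* had only 14, 15, 7 and 6 counts, at a log2 change of -1.18 (SE 0.63). *Anxa3*, 1 of the 3 tested annexins here, and *S100a3*, 1 of the 5 tested S100 genes, had each Tox RV value on top, against 18.6% of all genes in CPM. *S100a3* was also the 1 gene of these lists with an unadjusted p-value below 0.05 in edgeR, against 3.62% of all genes. *S100b*, 1 of the 5 tested S100 genes, was the gene with each Tox RV value at the bottom, against 17.4% of all genes. Of the S100 genes that were not tested, *S100a7a*, *S100a8* and *S100a9* were listed at 0 in all libraries.

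Receptors and binding partners of these proteins gave 9 tested genes of 12, 3 above 0 and 6 below 0 in log2 change, with a median of -0.13 and 0 called. *Ahnak*, the giant scaffold that docks on the annexin A2 and S100A10 complex, was at 203 and 91.2 TPM in the EV RV libraries and 142 and 85.2 TPM in the Tox RV libraries, high in both replicates 1. *Myh9*, the heavy chain of myosin IIA that S100A4 binds, was at 335 and 211 TPM in EV RV and 301 and 258 TPM in Tox RV. *Cacybp* was at 51.8 and 96.0 TPM in EV RV and 89.3 and 97.2 TPM in Tox RV, with a log2 change of 0.41 (SE 0.32, edgeR adjusted p = 0.897). That change was 0.97 without EV RV replicate 2, a fit in which EV RV replicate 1 is the sole control, and -0.0025 without EV RV replicate 1. *Plaur*, the urokinase receptor, was weak and lower in both Tox RV libraries, at 0.72 and 0.76 TPM against 1.37 and 1.49 TPM, with a log2 change of -0.87 (SE 0.37). *Pla2g4a*, a phospholipase that annexin A1 restrains, had 10, 15, 8 and 0 counts and is given without a fold. Each Tox RV value was below each EV RV value for *Plaur*, *Pla2g4a*, *Ager* and *Tlr4*, the last 2 named for this. That is 4 of 9 tested genes against 17.4% of all genes, and 0 of the 9 had both Tox RV values on top. All 4 were weak, with *Ager* at 2.23 to 3.61 TPM and *Tlr4* at 1.49 to 1.80 TPM.

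Genes of calcium-triggered membrane repair gave 9 tested of 10, with 7 above 0, 2 below 0, a median log2 change of 0.16 and 0 called. In CPM, 5 of the 9 had both Tox RV values on top and 1 had both at the bottom, against 18.6% and 17.4% of all genes. Among the genes on top, *Smpd1*, named for this, overlapped between the groups in TPM. *Pdcd6*, a calcium sensor that recruits repair machinery, was at 56.4 and 74.3 TPM in EV RV and 81.8 and 77.4 TPM in Tox RV. *Capns1*, the small calpain subunit, was at 93.2 and 102 TPM in EV RV and 108 and 110 TPM in Tox RV, and *Chmp4b*, of the ESCRT-III filaments, at 132 to 164 TPM over all libraries. *Myof* was weak, at 0.58 and 0.63 TPM in EV RV and 0.20 and 0.41 TPM in Tox RV. The other EF-hand genes numbered 6, all with a log2 change above 0 (median 0.20) and 0 called. Without EV RV replicate 1, 4 were above 0 and 2 below, with a median of 0.03, and without EV RV replicate 2 the median was 0.43. With all libraries, 3 of the 6 had both Tox RV values on top in CPM and 0 had both at the bottom, beside the same shares of all genes. In TPM the groups overlapped for each of these genes, *Lcp1* and the otherwise unnamed *Efhd2* and *Sri*, so that count depends on the scale. *Calm2* and *Calm3*, which encode calmodulin, had log2 changes of 0.40 and 0.34 with EV RV replicate 1 lowest in each, and without that library the values were -0.0051 and 0.032. *Lcp1*, the actin bundler plastin, was at 702 and 582 TPM in EV RV and 685 and 661 TPM in Tox RV.

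The effector T cell genes that are often measured beside *S100a4* were tested in 8 of 8 cases, with 6 above 0, 2 below 0, a median log2 change of 0.13 and 0 called. The median was 0.04 without Tox RV replicate 1, 0.24 without Tox RV replicate 2 and 0.08 without EV RV replicate 2. The galectin genes had the highest log2 changes of this list, and were the 2 of 8 with an unadjusted p-value below 0.05 in edgeR, against 3.62% of all genes. *Lgals1* was at 1338 and 1151 TPM in the EV RV libraries and 2083 and 1471 TPM in the Tox RV libraries. Its log2 change was 0.60 (SE 0.22, edgeR adjusted p = 0.897). *Lgals3* was at 38.2 and 44.6 TPM in EV RV and 82.5 and 53.2 TPM in Tox RV, with a log2 change of 0.79 (SE 0.26) and the same adjusted p-value. As with *S100a4*, Tox RV replicate 1 was the highest library for both, and without it the log2 changes were 0.32 for *Lgals1* and 0.43 for *Lgals3*. *Vim*, the intermediate filament of these cells, was at 1339 and 1401 TPM in EV RV and 1597 and 1498 TPM in Tox RV. *Crip1* overlapped between the groups, at 448 and 413 TPM in EV RV and 501 and 408 TPM in Tox RV. *Cd44* and *Itgb1*, the 2 genes below 0 and named for that, were at 192 and 208 TPM in EV RV against 130 and 167 TPM in Tox RV, and at 146 and 198 TPM against 118 and 132 TPM. Their log2 changes were -0.35 (SE 0.19) and -0.38 (SE 0.22), with each Tox RV value below each EV RV value. In CPM this held for 2 of the 8 genes, against 17.4% of all genes, and 4 of the 8 had both Tox RV values on top, against 18.6%. The value of *Cd44* was -0.20 without Tox RV replicate 1 and -0.54 without Tox RV replicate 2, and that of *Itgb1* was -0.099 without EV RV replicate 2 and -0.62 without EV RV replicate 1.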

How the data were processed

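RNA-seq was analysed from 4 libraries, 2 per group, assigned to EV RV or Tox RV and to a replicate number by their titles. Per the methods, read quality was examined with fastqc, and alignment (bowtie, mm10) and quantification by RSEM gave 1 file per library. Use of strand is not given in the sources used here, and *Anxa2*, *Anxa4* and *S100a4* overlap exons of annotated genes that the tables do not list. The authors deposited expected counts, which RSEM estimates without normalization. The deposited TPM values are length-corrected by RSEM and sum to 1000000 per library. A further table of the series was not used.

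Expected counts were rounded and tested in R 4.3.3 with edgeR 4.0.16 (filterByExpr with minimum count 10, TMM scaling, glmQLFit and glmQLFTest, no block), with adjustment over all 14143 genes. CPM are TMM-scaled. Standard errors came from the F statistic, and SD is over 2 libraries. DESeq2 1.42.0, which the methods name, and limma 3.58.1 on log2(TPM + 1) or log2(TPM + 0.1) were alternatives, beside other scalings, no low-count filter, a replicate block and leaving out each library. The tests were also run on counts simulated from the fitted dispersions, and no result given here rests on that run. An exact test of 2 libraries against 2 cannot reach 0.05 and was not used. At least 216 counts stood behind each value of the 10 genes.

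The 10 genes were given by name, and they, the gene lists and the tests were chosen with earlier results of these data known. Named list genes were the 3 of highest mean TPM and the 2 of largest log2 fold change per list, and others are marked or stand in a count. The values of 1 list gene are not reported here.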

Additional observations from a re-analysis of the deposited data

How the results depend on the processing

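No alternative fit of all 4 libraries called any of the 10 genes. Leaving out an EV RV library moved *S100a11* and the list gene *Cacybp* far. Their log2 changes were -2.25 and 0.97 without EV RV replicate 2, and 0.097 and -0.0025 without EV RV replicate 1. The median log2 fold change of the annexins was 0.34 with scaling by library totals, where the median of all genes shifted to 0.12 and the annexins lay 0.22 above it. It was 0.125 with limma on log2(TPM + 1) and 0.13 on log2(TPM + 0.1), and 0.15 to 0.37 with each library left out. The S100 median was 0.36 with library totals and 0.14 in both limma fits. Of 110 values of single genes under 11 alternatives, 12 changed sign, all of them of *S100a10*, *Anxa7*, *Anxa1* or *S100a11*. *S100a10* was at -0.0036 with DESeq2 and with median-of-ratios scaling, -0.0044 with the replicate block, -0.087 in both limma fits, and -0.18 to 0.16 with a library left out. *Anxa7* was at 0.0902 with library totals and between -0.11 and 0.058 with a library left out. With a library left out, *Anxa1* ranged from -0.35 to 0.62 and *S100a11* from -2.25 to 0.097. With the replicate block, 0 of the 10 genes and 16 of all genes were called. Same-numbered libraries deviated together (correlation over genes 0.30, 1 value by construction with 2 pairs), but the number is not known to mark a shared mouse. No sums with gene copies were run, since no copies of the 10 genes are listed. In fits with 1 library in a group, that library is assumed to vary like the other group.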
